A study of Mus musculus with 16 samples.

Results

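Interferon-stimulated genes are the genes whose transcription type I and type II interferons switch on. The list examined here held 37 of them, chosen by name, and 36 had a probe on the array, which carried 25697 probes for 16593 named genes. Ifi44 was not analysed here. Each gene was read from 1 probe, the one with the highest mean over all arrays, and 11 of the 36 genes had more than 1 probe. The mean log2 intensity of the middle probe on the array was 6.60. The probes of 27 members lay above it and are called bright below, while those of 9 members (Ifih1, Ifit1, Oas1a, Mx1, Mx2, Xaf1, Rtp4, Parp9 and Iigp1) lay under it, in the range where intensities carry little signal.

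The arrays measured total RNA from bone marrow stromal cells of mice on a mixed CD1/C57BL6 background, kept for 7 days in osteogenic culture. There were 8 arrays of HDAC3 conditional knock-out cultures (Hdac3 CKO below) and 8 arrays of wild type cultures. Hdac3 encodes a histone deacetylase that works within a nuclear corepressor complex, and in the knock-out it was deleted with Osterix1-Cre, a transgene that acts in cells of the osteoblast lineage, so other cells in the same culture can keep the gene. The labels give neither sex nor age, and do not say whether wild type cultures carried the Cre transgene or whether each array came from a separate animal, so the p-values speak only for the spread seen from array to array. The array titles carry numbers that fall into 5 runs of neighbouring numbers, and every run held as many Hdac3 CKO as wild type arrays: KO7 with WT5 (run 1), KO15 and KO16 with WT13 and WT14 (run 2), KO23 and KO24 with WT21 and WT22 (run 3), KO32 with WT30 (run 4), and KO46 and KO47 with WT42 and WT44 (run 5). The labels do not say what these numbers mark.

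Type I interferons bind a receptor that activates the kinases Jak1 and Tyk2. A complex that holds Stat2 and Irf9 then binds a promoter element, the interferon-stimulated response element (ISRE), whereas interferon gamma acts mainly through a shorter element (GAS). The genes switched on include sensors of viral RNA, transducers of the signal itself, antiviral effectors, GTPases of intracellular defence, and parts of the antigen presentation machinery. In bone, macrophages and stromal cells both respond to interferons.

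An ISRE core stood in the promoters of many members, and sequences around such matches are shown. RefSeq promoter sequences of build GRCm38.p6, from 250 bases before to 50 bases after the transcription start, were at hand for 26 of the 36 members. The ISRE core GAAANNGAAA, or its reverse complement TTTCNNTTTC, occurred in 13 of the 26 members, against 3.99% of all 27025 genes with an entry. The GAS core TTCNNNGAA, which reads the same on both strands, occurred in 6 of the 26 members, against 9.55% of these genes. Both strands were searched, and matches of the 2 motifs may share bases. The windows below are those of 5 members that differed between runs and of Bst2, which holds the core and did not differ between runs. Each is written 5′ to 3′ in the direction of the gene, lies wholly outside and upstream of the annotated gene, and shows the core matches in capitals with 15 flanking bases on either side.

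Rsad2, chr12:26456548-26456587, minus strand: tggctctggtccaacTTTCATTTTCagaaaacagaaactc
Stat2, chr10:128270261-128270300, plus strand: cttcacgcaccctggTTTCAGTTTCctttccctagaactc
Isg15, chr4:156200860-156200911, minus strand: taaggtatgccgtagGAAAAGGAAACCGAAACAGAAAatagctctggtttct
Igtp, chr11:58199507-58199546, plus strand: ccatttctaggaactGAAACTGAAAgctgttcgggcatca
Gbp2, chr3:142620589-142620628, plus strand: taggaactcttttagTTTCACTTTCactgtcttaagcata
Bst2, chr8:71537572-71537617, minus strand: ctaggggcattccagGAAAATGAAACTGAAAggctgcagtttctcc

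Isg15 held 3 overlapping cores, Ifit3 held 2 separate ones, and Gbp3 and Bst2 each held 2 overlapping ones. The stretches of Ifit3 and Gbp3 are not shown because they reach into the annotated gene. Oasl2 had no core in its window, and Usp18 and Oas2 were among the 10 members with no promoter entry. A match is a stretch of letters, and whether any factor bound it was not measured.

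Before the members, the arrays themselves were checked. The authors' values were quantile normalised, with array medians of 97.1 to 97.2 intensity units, so they hold no depth. Hdac3 stood at 10.16 to 10.38 log2 units in Hdac3 CKO arrays and at 10.29 to 10.52 in wild type arrays, a difference of -0.17 that did not pass the test (adjusted p = 0.932, and 0.162 with the runs as a block), and the position of its probe relative to the deleted exons was not given in the sources used here. WT13 and WT14 stood apart: the Y-linked gene Eif2s3y was at 5.89 and 6.17 there, against 8.28 to 9.89 on the other arrays, and the macrophage marker Fcer1g was at 6.20 and 6.12 there, against 11.73 to 13.23 on the other arrays, so the main results that rest on run 2 are also given without these arrays. Markers of osteoblasts, macrophages and adipocytes were present, among them Sp7 (11.32 in Hdac3 CKO, 11.62 in wild type), Adgre1 (12.27 and 11.84) and Lpl (13.75 and 13.43), so the cultures were mixed. Not all markers of these lists were bright: 6 of 9 osteoblast markers were bright, and Dmp1 (6.32 and 6.31), Bmp3 (6.44 and 6.51), Phex (6.53 and 6.60) and the macrophage marker Msr1 (6.07 and 6.13) were not. Of 7 adipocyte markers 4 were bright, among them Adipoq (9.54 and 8.35). Cidec (6.88 and 6.21), Plin1 (6.61 and 6.23) and Fabp4 (6.19 and 6.18) were not. Lymphocyte markers lay at 6.12 to 6.59 in the group means, as did 3 of 5 plasmacytoid dendritic cell markers, Siglech, Ccr9 and Ly6d (6.12 to 6.50). The other 2 were higher, Cox6a2 at 7.36 and 7.28, and Bst2, itself a member, at 10.05 and 9.74.

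No interferon-stimulated gene passed the test between Hdac3 CKO and wild type, yet nearly all had a slightly higher mean in Hdac3 CKO. Of the 36 genes, 33 had the higher mean in Hdac3 CKO and 3 the lower one (Isg15, Ifi35 and Psmb8, by 0.05 log2 units at most). This count rests on the brightest probe of each gene. Other probes of Irf9 (-0.05), Ifit2 (-0.005), Irgm1 (-0.04 and -0.01) and Iigp1 (-0.02), and a dim one of Gbp2 (-0.08), were lower in Hdac3 CKO. The remaining further probes of members were higher. Over the whole array 8372 of 16593 genes had the higher mean in Hdac3 CKO. The bright members went up and down together across the arrays (median Pearson 0.57 over their pairs). Counts of members, here and by unadjusted p below, are therefore not counts of separate observations, and a few arrays can move many members. The median log2 difference, Hdac3 CKO minus wild type, was 0.10 over the 36 members and 0.15 over the 27 bright ones, against 0.00 over all genes. Marker lists of cell types also leaned to one side, without passing the test but for Adipoq with the block: 7 of 7 adipocyte markers (median difference 0.38) and 11 of 13 macrophage markers (0.23) were higher in Hdac3 CKO, and 7 of 9 osteoblast markers were lower (-0.08). These leans were largest in run 2, which holds WT13 and WT14. In runs 1 to 5 the macrophage median was -0.02, 0.83, -0.02, -0.03 and 0.34. The adipocyte median was 0.10, 1.10, 0.17, 0.22 and 0.34, and the osteoblast median -0.08, -0.49, -0.05, 0.09 and 0.13. With the macrophage marker mean as a covariate beside the runs, the members' median was 0.11, and 0.12 with Fcer1g left out of that mean. The part of the adipocyte and osteoblast markers was not tested. Being arrays of bulk culture RNA, they cannot tell fewer cells of a type from less RNA per cell. Neither limma without a block (0% of all probes called) nor limma with the runs as a block (0.218% of all probes called) placed a member under an adjusted p of 0.05. At an unadjusted p under 0.05, 4 members were higher in Hdac3 CKO and 0 lower without the block, where 2.58% of all probes were higher and 2.16% lower. With the block, 12 members were higher and 0 lower, where 5.81% of all probes were higher and 5.37% lower.

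Among the poly-ADP-ribose polymerases, Parp12, an interferon-induced enzyme that restricts several RNA viruses, came closest to the threshold. Its 8 Hdac3 CKO arrays had a lowest value of 8.08, a median of 8.30 and a highest value of 8.44, and its 8 wild type arrays had 7.82, 7.997 and 8.23. The ranges overlapped, but within every run the Hdac3 CKO mean was the higher one. The means were 8.27 ± 0.14 in Hdac3 CKO and 7.999 ± 0.12 in wild type (SD, n = 8 each), a log2 difference of 0.27 with a standard error of 0.06 (1.20-fold). The adjusted p was 0.932 without the block and 0.0802 with it. Leaving out KO32, WT30 or the whole of run 4, the pair of arrays with the smallest Parp12 difference (0.07), brought the blocked adjusted p to 0.0442 with a difference of 0.30. Without WT13 and WT14 it was 0.595. Parp14, an enzyme of the same family, differed by 0.24 (blocked adjusted p = 0.255), and the dim Parp9 by 0.12 (blocked adjusted p = 0.346).

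Of the antiviral effectors, Oas2 and Oasl2, of the oligoadenylate synthetase family, had the largest differences. Oas2 makes the second messenger that activates ribonuclease L. It had a lowest, median and highest value of 6.63, 7.15 and 8.35 on Hdac3 CKO arrays, and of 6.51, 6.88 and 7.60 on wild type arrays. The highest wild type value, that of WT30, exceeded 5 of the 8 Hdac3 CKO values. The log2 difference was 0.43 with a blocked standard error of 0.10 (blocked adjusted p = 0.104), and it ranged between 0.08 in run 5 and 0.87 in run 2. Without WT13 and WT14 it was 0.28 with the block (adjusted p = 0.652). Oasl2, of the same family, had 8.38, 9.34 and 10.63 on Hdac3 CKO arrays, and 8.21, 8.94 and 10.01 on wild type arrays. The ranges overlapped over most of their length. Its difference was 0.42 with a blocked standard error of 0.11 (blocked adjusted p = 0.135), and the Hdac3 CKO mean was the higher one in all 5 runs. Bst2, tetherin, which holds budding virus at the cell surface, had 9.46, 10.05 and 10.76 on Hdac3 CKO arrays and 9.54, 9.71 and 9.96 on wild type arrays. The spread of Bst2 was wider in Hdac3 CKO (SD 0.44) than in wild type (SD 0.16), and its difference of 0.32 was positive in 3 of 5 runs (adjusted p = 0.932, and 0.457 with the block). Of the other members of the family, Oasl1 differed by 0.08 and was higher in Hdac3 CKO in 2 of 5 runs (blocked adjusted p = 0.842), and the dim Oas1a differed by 0.14 (0.391), or by 0.06 without WT13 and WT14.

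Psmb9, an inducible catalytic subunit of the immunoproteasome, had a lowest, median and highest value of 8.74, 8.94 and 9.36 on Hdac3 CKO arrays, and of 8.21, 8.64 and 8.98 on wild type arrays. Its log2 difference was 0.38 with a blocked standard error of 0.09 (blocked adjusted p = 0.108), and it was positive in all 5 runs, with 0.80 in run 2 and 0.02 in run 1. The lowest wild type values were those of WT13 and WT14 (8.36 and 8.21), and without these arrays the blocked difference was 0.24 (adjusted p = 0.652). Its partner subunit Psmb8 stood at 8.02 ± 0.25 in Hdac3 CKO and 8.02 ± 0.20 in wild type (SD, n = 8 each), with a 95% interval for the blocked difference of -0.19 to 0.18. Tap1, a subunit of the peptide transporter of the endoplasmic reticulum, differed by 0.06 (blocked adjusted p = 0.648).

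In the remaining roles the differences were of the same order. The GTPase Ifi47 had means of 8.57 ± 0.36 in Hdac3 CKO and 8.30 ± 0.24 in wild type (SD, n = 8 each), a difference of 0.27 that was positive in all 5 runs (blocked adjusted p = 0.157). Ddx58, the cytosolic RNA sensor RIG-I, had 7.58 ± 0.30 in Hdac3 CKO and 7.36 ± 0.38 in wild type, a difference of 0.22 that was also positive in all 5 runs (blocked adjusted p = 0.220). Among the transducers, Irf9 differed by 0.15 (blocked adjusted p = 0.440), Irf7, the master regulator of the interferon alpha genes, by 0.17 (0.479), and Trim25, the ubiquitin ligase that activates RIG-I, by 0.15 (0.318). The dimmer probe of Irf9 differed by -0.05 (blocked adjusted p = 0.858). Isg15, a ubiquitin-like protein, had a difference of -0.05 with a blocked 95% interval of -0.40 to 0.31.

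**Figure D1:**
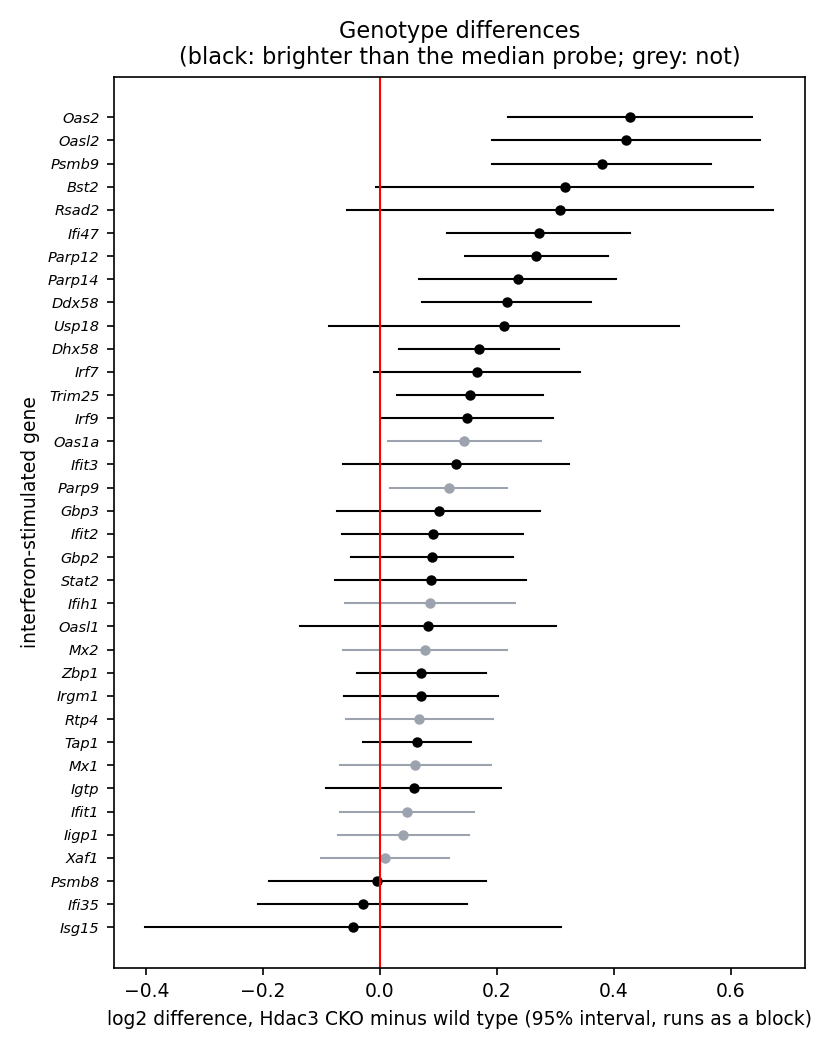
Log2 difference between Hdac3 CKO and wild type (x axis, Hdac3 CKO minus wild type) for each of the 36 interferon-stimulated genes (y axis, sorted by size), with the 95% interval of the fit that has the 5 runs as a block. Black points are members brighter than the middle probe, grey ones are not, and the red line marks 0: 33 points lie to its right, from 0.01 for Xaf1 to 0.43 for Oas2, and none passed the adjusted threshold.

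The small excess in Hdac3 CKO was not even over the runs. The median difference over the 36 members was 0.04 in run 1, 0.14 in run 2, 0.09 in run 3, 0.37 in run 4 and 0.02 in run 5. Run 4 is the single pair KO32 and WT30, in which 34 of 36 members were higher in KO32, while run 5 had 19 of 36 higher in Hdac3 CKO. The median without a block was 0.06 without KO15, 0.15 without KO46 and 0.20 without WT13 and WT14, and it was 0.03 without both KO15 and KO32. All these values are positive, and no member passed the adjusted test in any of these fits.

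Most bright interferon-stimulated genes differed between runs, by up to 4.45-fold between the highest and the lowest run. With genotype in the model, 20 of the 36 members differed between runs at an adjusted p under 0.05, all of them among the 27 bright members. Over the whole array 20.1% of probes did so, and 37.7% of the probes brighter than the middle one. The highest run mean was that of run 2 for 24 members, against 2951 of 16593 genes over the whole array, and of run 4 for 8 members, against 3859 genes. The lowest was that of run 3 for 16 members and of run 5 for 13, against 3143 and 3582 genes. The distance between the highest and the lowest run mean had a median of 0.48 log2 units over the 36 members and of 0.63 over the bright ones, against 0.21 over all genes and 0.36 over all bright genes. Each genotype gave run differences by itself: 13 members passed in the Hdac3 CKO arrays alone, where 7% of probes did, and 14 in the wild type arrays alone, where 9.3% did. In the wild type arrays run 2 consists of WT13 and WT14, which stood apart, and a wild type fit without them is not given here.

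**Figure D2:**
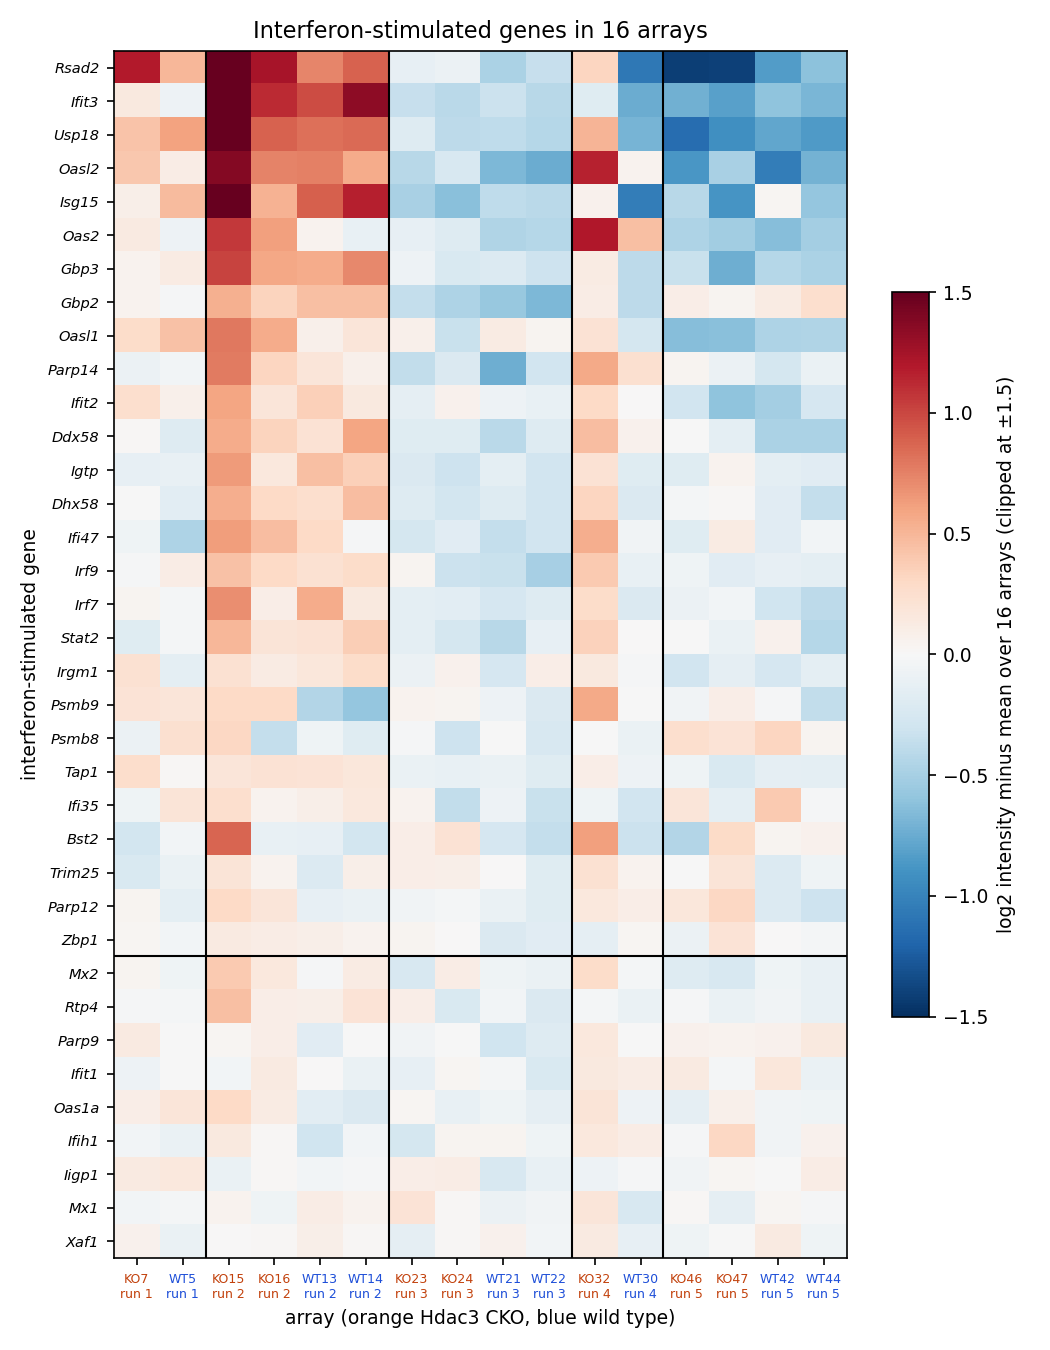
Log2 intensity of each interferon-stimulated gene (rows) on each of the 16 arrays (columns, orange labels Hdac3 CKO, blue labels wild type, grouped by run), as the difference from the gene's own mean over 16 arrays, with the colour scale clipped at 1.5. Members above the horizontal line are the 27 bright ones: run 2 and KO32 are mostly red and runs 3 and 5 mostly blue, while the 9 dim members below the line stay near white.

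Among the antiviral effectors, 6 of 14 members (42.9%) differed between runs, against 37.7% of bright probes and 20.1% of all probes. Rsad2 encodes viperin, an enzyme that makes a chain-terminating nucleotide against viral RNA synthesis. Its lowest, median and highest values were 6.93, 8.46 and 9.84 on Hdac3 CKO arrays, and 7.26, 7.93 and 9.23 on wild type arrays. The highest arrays of both genotypes were those of run 2, the lowest was in run 5 in Hdac3 CKO and in run 4 in wild type, and the ranges overlapped. Its run means were 9.19, 9.43, 8.08, 7.97 and 7.28 in runs 1 to 5, so that run 2 lay 2.15 log2 units, or 4.45-fold, above run 5 (adjusted p = 6.74e-05). Ifit3, of the family of proteins that bind foreign RNA ends, had 6.86, 7.41 and 9.39 on Hdac3 CKO arrays, and 6.94, 7.31 and 9.01 on wild type arrays. The 4 arrays of run 2 (8.66 to 9.39) all lay above the 12 others (6.86 to 7.82), and run 2 was 3.99-fold above run 5 (adjusted p = 1.92e-07).

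Oasl2 and Oas2 had a second high run. Oasl2 had run means of 9.51, 10.12, 8.74, 9.86 and 8.48 in runs 1 to 5 (adjusted p = 5.22e-06), and KO32 of run 4 stood at 10.41, second to KO15 of run 2 at 10.63. Oas2 had its highest run mean in run 4, with 8.35 in KO32 and 7.60 in WT30, and was 2.57-fold above run 5 there (adjusted p = 8.84e-05). Oasl1 (adjusted p = 0.00159) and Ifit2 (0.000815) were also lowest in run 5. Bst2 (adjusted p = 0.903) and Ifi35 (0.190) were bright and did not pass. The 6 dim effectors, Ifit1, Oas1a, Mx1, Mx2, Xaf1 and Rtp4, had run ranges of at most 0.32 log2 units and none passed. Rtp4 and Mx2 still followed the mean of the bright members (Pearson 0.83 and 0.79), whereas Ifit1 (0.17), Xaf1 (0.30), Mx1 (0.37) and Oas1a (0.57) did so less.

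Of the 6 transducers and regulators, all but Trim25 (83.3%) differed between runs, against 37.7% of bright probes. Usp18, which removes Isg15 from proteins and dampens the type I interferon receptor, had 7.05, 8.31 and 9.86 as its lowest, median and highest value on Hdac3 CKO arrays, and 7.35, 7.79 and 9.04 on wild type arrays. The highest arrays of both genotypes were those of run 2. Its run means were 9.25 in run 2 and 7.27 in run 5, a 3.93-fold distance (adjusted p = 3.09e-05), and its 2 other probes followed the same pattern (Pearson 0.97 with the brightest probe for both). Isg15 had 7.05, 7.77 and 9.49 on Hdac3 CKO arrays, and 6.91, 7.77 and 9.11 on wild type arrays. Run 2 stood at 8.98 and run 1 at 8.23, while runs 3, 4 and 5 lay between 7.46 and 7.48 (adjusted p = 0.000643). Without run 2, Isg15 no longer passed (adjusted p = 0.213). The transcription factors had smaller distances between runs: Irf9 had run means between 8.72 and 9.31 (adjusted p = 0.00297), Stat2 between 6.93 and 7.48 (0.00831) and Irf7 between 6.42 and 7.00 (0.00936). Trim25 was not called (adjusted p = 0.390).

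**Figure D3:**
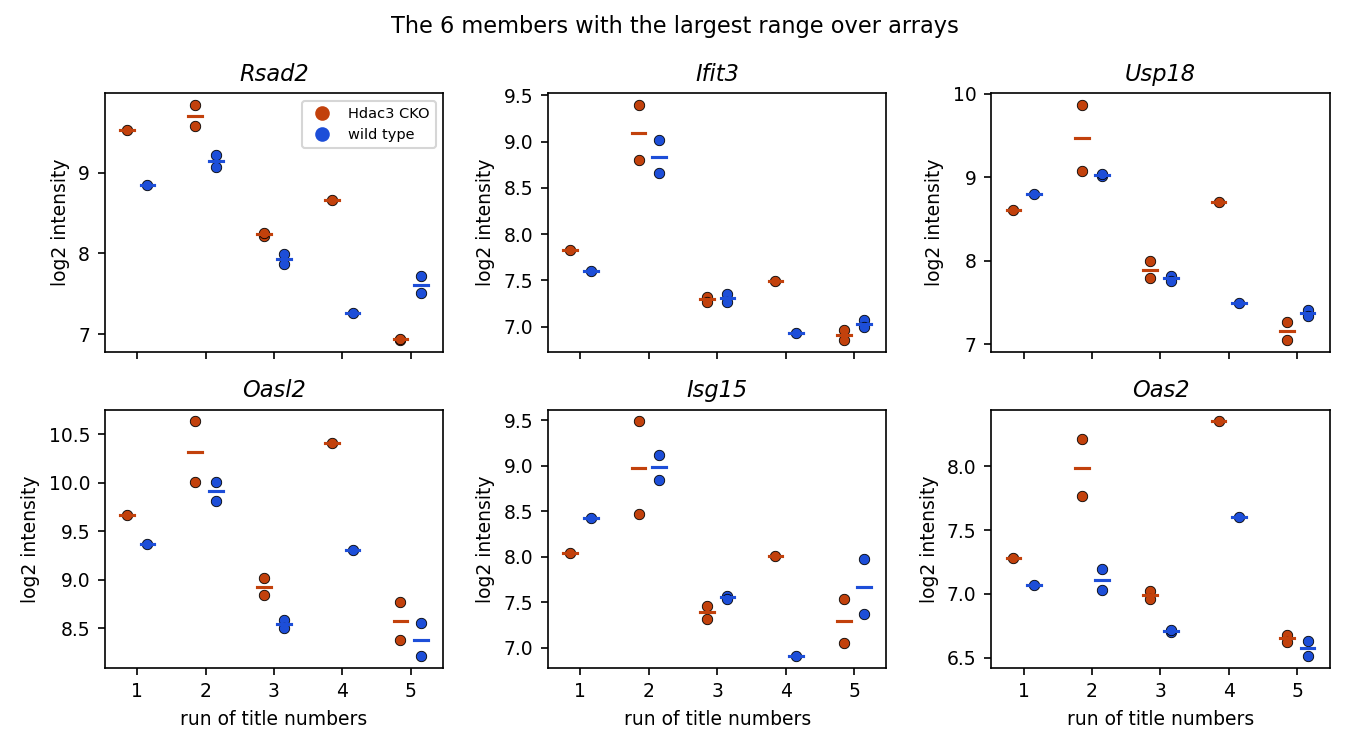
Log2 intensity (y axis) of the 6 members with the largest range over the arrays, by run (x axis), with 1 point per array, Hdac3 CKO in orange left of wild type in blue, and a bar at each mean of a run and genotype. Run 2 has the highest mean in all panels but that of Oas2, Oas2 and Oasl2 are high in run 4, and Rsad2 is lower in Hdac3 CKO than in wild type in run 5 only.

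Among the GTPases, 5 of 6 (83.3%) differed between runs, against 37.7% of bright probes and 20.1% of all probes. Gbp3 and Gbp2 are guanylate-binding proteins that coat intracellular pathogens. Gbp3 had 6.78, 7.51 and 8.53 as its lowest, median and highest value on Hdac3 CKO arrays, and 7.04, 7.26 and 8.24 on wild type arrays. Its 4 arrays of run 2 (8.07 to 8.53) lay above all others, with a 2.31-fold distance to run 5 (adjusted p = 1.96e-05), and its second probe gave the same order (Pearson 0.98). Gbp2 had 7.96, 8.49 and 8.96 on Hdac3 CKO arrays, and 7.75, 8.47 and 8.87 on wild type arrays. It was highest in run 2 (8.86) and lowest in run 3 (7.90), not in run 5 (8.55), with an adjusted p of 2.63e-05. With the median of its 3 probes in place of the brightest, Gbp2 was not called (adjusted p = 0.103). Its other 2 probes lay under the middle probe (6.07 and 6.46) and did not pass by themselves. Of the immunity-related GTPases, Igtp (adjusted p = 0.00175) and Ifi47 (0.00177) passed with 1.56-fold and 1.53-fold distances, and Irgm1 with 1.32-fold (0.0324). Iigp1 was dim and did not pass (0.512).

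Of the 4 sensors, 2 (50%) passed between runs, against 37.7% of bright probes and 20.1% of all probes. Both are RNA helicases. Ddx58 had run means of 7.90 in run 2 and 7.20 in run 5 (adjusted p = 0.000179), and Dhx58, its relative, had 7.91 in run 2 and 7.29 in run 3 (adjusted p = 0.000910). Zbp1, a sensor of nucleic acid in the Z form, had a run range of 0.18 (adjusted p = 0.423), and Ifih1 was dim (0.563). Of the remaining genes, Parp14 was highest in run 4 and 1.75-fold above run 3 (adjusted p = 0.000682), and Tap1 was 1.27-fold higher in run 2 than in run 5 (0.00263). Parp12 (0.419), Psmb8 (0.254) and Psmb9 (0.230) did not pass. Parp12 and Psmb9 were the 2 genes nearest the genotype threshold without the block. That fit leaves run differences in the residual, so genes that vary between runs are held back from its threshold. With the block, Oas2 (adjusted p between genotypes 0.104) came between Parp12 (0.0802) and Psmb9 (0.108). Oas2 was called between runs (adjusted p = 8.84e-05), as were Oasl2, Ifi47 and Ddx58, which came next with the block.

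Leaving out arrays moved the count of 20 members as follows. It was 16 without WT13 and WT14, where Ifit3, Oasl2, Gbp3, Gbp2, Usp18, Rsad2, Isg15 and Oas2 all still passed (largest adjusted p 0.0141, that of Isg15). It was 18 without KO15 and KO32, and 12 without run 2. The share of all probes called in these smaller sets of arrays is not given here. These counts therefore cannot show a change particular to the members. Splitting the 26 members with a promoter entry by the ISRE core, the 13 with it had a median run range of 0.65 log2 units with 9 called, and the 13 without it had 0.38 with 7 called. Among bright members alone, the 10 with it had 0.83 with 9 called, and the 12 without it 0.48 with 7 called. Of all bright probes 37.7% were called with all 16 arrays. Usp18 and Oas2, with run ranges of 1.98 and 1.36, had no promoter entry and stand in neither group. The difference between the groups was not tested.

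Across the 16 arrays the bright members went up and down together. The median Pearson correlation over all 351 pairs of bright members was 0.57 (Spearman 0.52), and 93.7% of pairs were above 0. Over all bright genes of the array it was 0.00. All 36 members gave 0.39 over 630 pairs, and the 9 dim ones 0.16. With the run means removed the bright members still had a median of 0.45, and with the means of each run and genotype removed 0.35, over the 12 arrays whose run and genotype held 2 arrays. The points share arrays and normalisation, so these values are descriptions. Against the mean of the other bright members, Oasl2 (Pearson 0.93), Dhx58 (0.92), Irf9 (0.91) and Irf7 (0.91) were closest. Psmb8 (-0.01), Psmb9 (0.30), Trim25 (0.33), Ifi35 (0.36) and Zbp1 (0.41) were the least close, and these are also bright members that did not pass between runs.

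The mean of the 27 bright members shows the same by array. It was 8.82 in KO15 and 8.46 in KO16, against 8.39 in WT13 and 8.40 in WT14, all of run 2. In run 4 it was 8.42 in KO32, against 7.91 in WT30. Run 1 had 8.20 in KO7 and 8.15 in WT5, and the 8 arrays of runs 3 and 5 lay between 7.81 and 7.97. KO15 and KO32 thus stood above their wild type neighbours, and in runs 1 and 5 the genotype means were within 0.05 of each other.

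The genotype difference itself varied with the run for 1 member, Rsad2. In run 1 Rsad2 was 9.53 in KO7, against 8.84 in WT5. In run 2 it was 9.84 and 9.58 in Hdac3 CKO, against 9.07 and 9.23 in wild type, and in run 3 it was 8.22 and 8.26 in Hdac3 CKO, against 7.86 and 7.999 in wild type. It was 8.67 in KO32, against 7.26 in WT30. In run 5 the order was the opposite, with 6.93 and 6.94 in Hdac3 CKO, against 7.50 and 7.72 in wild type. The differences were thus 0.69, 0.56, 0.31, 1.41 and -0.68 in runs 1 to 5, and the interaction of genotype with run had an adjusted p of 0.00207, where 0.494% of all probes passed. It stayed under 0.05 when any 1 run was left out (0.00119 to 0.0434). The next members by this test did not pass: Oasl1 (adjusted p = 0.210), Oas2 (0.266), Psmb9 (0.311), Usp18 (0.315) and Gbp2 (0.525).

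The probes of the interferons themselves lay near background. Of 10 interferon genes listed, 8 had probes, and 7 of these had means under that of the middle probe. Ifnb1 averaged 6.21 ± 0.11 in Hdac3 CKO and 6.18 ± 0.09 in wild type (SD, n = 8 each), Ifna4 6.12 ± 0.10 and 6.15 ± 0.07, and Ifng 6.23 ± 0.11 and 6.22 ± 0.10. Ifna1 was slightly brighter, with 6.73 ± 0.15 in Hdac3 CKO and 6.66 ± 0.10 in wild type. None of the 8 differed between runs (smallest adjusted p 0.370, that of Ifna1) or between genotypes, and the mean of the 8 lay between 6.22 and 6.33 on all 16 arrays. At these intensities a low level of interferon transcript could not have been seen.

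Receptors and the signalling steps close to them had their highest values in several runs. Of 15 measured genes, 8 (53.3%) differed between runs, against 37.7% of bright probes and 20.1% of all probes. Of the 15, 4 were highest in run 2, 4 in run 4 and 4 in run 5, and none passed between genotypes. The receptor chains Ifnar2 (adjusted p between runs 0.0195), Ifngr1 (0.0107) and Il10rb (0.000840) had their lowest run mean in run 2 and their highest in run 5. Ifngr1 was nearly level over runs 1 to 3 (9.485, 9.479 and 9.479). In run 2 the wild type arrays, WT13 and WT14, were below Hdac3 CKO by 0.38 for Ifnar2, 0.66 for Ifngr1 and 0.47 for Il10rb. Fits of these genes without WT13 and WT14 are not given here. Ifngr2 (0.0316) was highest in run 3 and lowest in run 5. Ifnar1, the other chain of the type I receptor, lay near background (6.06 in Hdac3 CKO, 6.12 in wild type). Jak1 (0.00663) was lowest in run 1 and highest in run 5, and Stat3 (0.00448) was highest in run 2. Socs3, a feedback inhibitor of cytokine receptors, was highest in run 1 (0.00480), whereas Socs1 was dim in Hdac3 CKO (6.53) and near the middle probe in wild type (6.64). Ptpn6, a phosphatase most abundant in blood cells, averaged 10.47 ± 0.20 in Hdac3 CKO and 10.15 ± 0.35 in wild type (SD, n = 8 each), the smallest blocked adjusted p of the group (0.152). Its run mean was lowest in run 2, where WT13 and WT14 were below Hdac3 CKO by 0.72.

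None of the other regulatory factors had its highest run mean in run 2, but Irf1 was nearly as high there (10.72) as in run 4 (10.75). Of 6 measured, Irf1 (highest in run 4, adjusted p between runs 0.00319), Irf5 (highest in run 3, 0.00204) and Irf8 (highest in run 5, 0.00186) passed, and all 6 had the higher mean in Hdac3 CKO without passing (smallest blocked adjusted p 0.255, that of Irf5). Irf5 and Irf8, which are abundant in macrophages, were lowest in run 2. The wild type arrays there, WT13 and WT14, were below Hdac3 CKO by 0.68 and 0.58. Of 14 genes of nucleic acid sensing upstream of interferon, 4 (28.6%) differed between runs, a share between those of all probes (20.1%) and of all bright probes (37.7%): Tlr7 (0.00913), Myd88 (0.00756), Samhd1 (0.0145) and Rnaseh2c (0.000695). Tlr7, the endosomal receptor for single-stranded RNA, averaged 10.22 ± 0.33 in Hdac3 CKO and 9.88 ± 0.35 in wild type (SD, n = 8 each), with a blocked adjusted p of 0.166.

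Many genes of a second list of interferon-stimulated genes, outside the 37, were also highest in run 2. Of 43 measured, 19 (44.2%) differed between runs, against 37.7% of bright probes and 20.1% of all probes. In run 2, 20 of the 43 were highest, against 2951 of all 16593 genes. The mean of 35 was higher in Hdac3 CKO, with a median difference of 0.06 over the list and none past the genotype test. Irgm2, an immunity-related GTPase, had run means of 9.08 in run 2 and 7.94 in run 3 (adjusted p = 4.57e-07). Samd9l, an inhibitor of viral translation, had 11.18 in run 2 and 9.57 in run 5 (0.000315), and Eif2ak2, the RNA-activated kinase PKR, had 11.22 and 9.87 in the same runs (0.000287). Cmpk2, the mitochondrial kinase that neighbours Rsad2 in the genome, had 8.12 in run 2 and 7.03 in run 5 (6.84e-05). The chemokine Cxcl9, a target of interferon gamma, was above the middle probe in run 2 alone (7.01, against 6.22 to 6.54 in the other runs, adjusted p = 1.46e-05). Ifi27l2a was the 1 gene of this list whose genotype difference varied with the run (adjusted p = 0.0213), and it was highest in run 4.

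Genes of antigen presentation through MHC class I were mostly highest in run 5. Of 13 measured genes, 6 (46.2%) differed between runs, against 37.7% of bright probes and 20.1% of all probes. Of the 13, 7 were highest in run 5 and 1 in run 2, against 3510 and 2951 of all 16593 genes. H2-Q7 (adjusted p = 5.52e-05) and H2-T23 (9.63e-05) were highest in run 5 and lowest in run 3, while Tap2, the partner of Tap1, was highest in run 2 (0.0127). B2m, the light chain, averaged 13.47 ± 0.32 in Hdac3 CKO and 13.48 ± 0.23 in wild type (SD, n = 8 each) and passed in neither comparison.

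Markers of the cell types in the cultures also differed between runs. The mean of 13 measured macrophage markers was highest in run 4 (11.26) and lowest in run 2 (10.32), but without Fcer1g it was lowest in run 1 (10.36), with 10.42 in run 2. Within run 2 it was 10.83 and 10.86 in Hdac3 CKO, against 9.75 and 9.82 in wild type, and without Fcer1g 10.74 and 10.77, against 10.05 and 10.13. It ranged between 10.51 and 11.37 over Hdac3 CKO arrays and between 9.75 and 11.28 over wild type arrays. WT13 and WT14 thus combined the lowest macrophage marker means, with or without Fcer1g, with interferon-stimulated gene means above those of all arrays outside run 2 but KO32. The mean of 9 osteoblast markers was highest in run 2 (10.29, against 8.93 to 9.49 in the other runs), ranging between 8.86 and 10.15 over Hdac3 CKO arrays and between 8.94 and 10.66 over wild type arrays. The mean of 7 adipocyte markers was also highest in run 2 (9.35, against 8.05 to 8.25), ranging between 8.17 and 9.98 over Hdac3 CKO arrays and between 7.91 and 8.78 over wild type arrays, with Fabp4 near background on both (6.19 and 6.18). Of 7 neutrophil markers 4 (57.1%) passed between runs, against 37.7% of bright probes and 20.1% of all probes. The mean of the 7 was highest in run 2, with 7.78 and 7.69 in Hdac3 CKO, against 7.12 and 7.09 in wild type. Of 5 endothelial markers 4 (80%) passed, and the mean of the 5 was highest in run 4 (8.21) and lowest in run 2 (7.15). With the macrophage marker mean as a covariate beside the runs, no member passed between genotypes and the Parp12 difference was 0.21 (adjusted p = 0.546), or 0.19 without Fcer1g in that mean (0.550). The part of these cell types in the differences between runs was not tested.

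**Figure D4:**
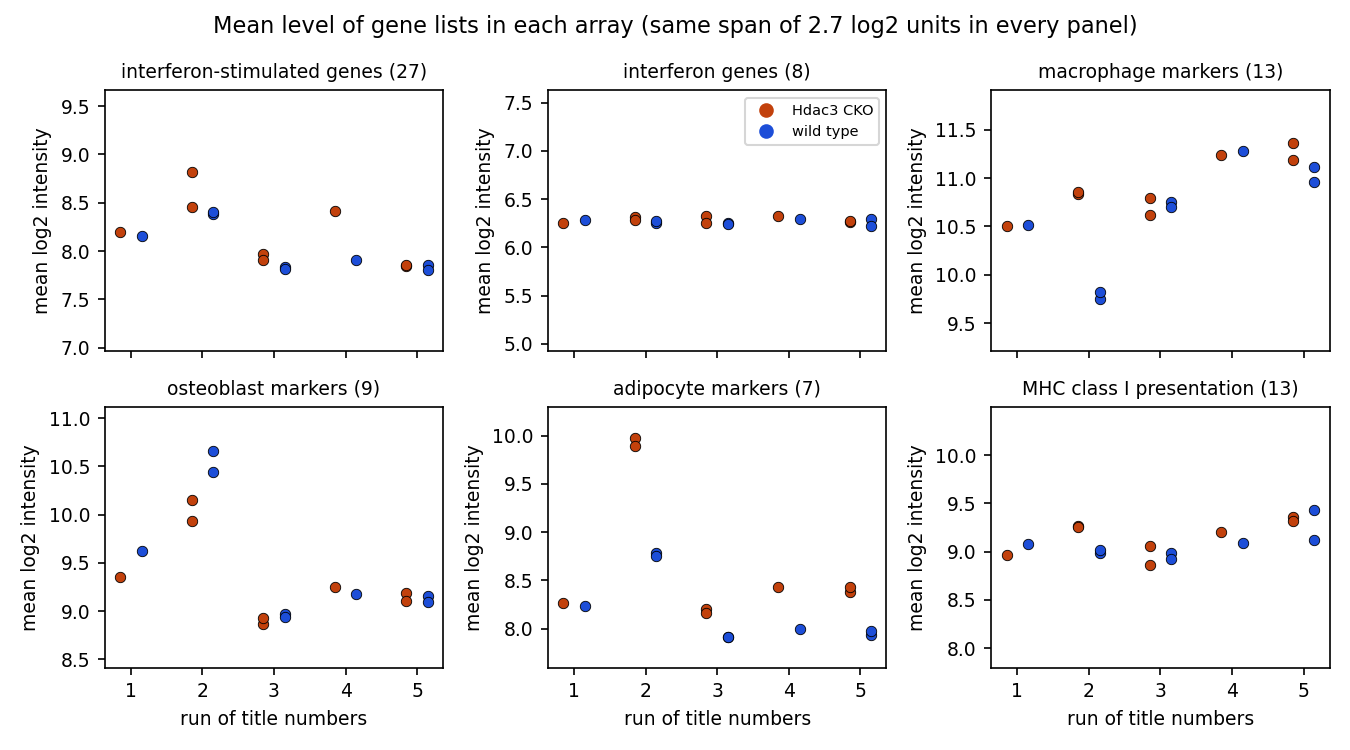
Mean log2 intensity (y axis, the same span of 2.7 units in every panel) of 6 gene lists on each array, by run (x axis), Hdac3 CKO in orange left of wild type in blue; the number of genes in each list stands in its title. The bright interferon-stimulated genes, osteoblast markers and adipocyte markers are highest in run 2, the macrophage markers are lowest there in wild type, and the interferon genes stay between 6.22 and 6.33 throughout.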

How the data were processed

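Per the labels, biotin-labelled total RNA was hybridised to Illumina mouse arrays; the deposited values are linear intensities on which all 16 arrays share 1 distribution, so the authors had quantile normalised them. Of their software, background treatment and filters, nothing is given in these sources. Intensities were floored at 16 (the lowest was 53.1) and log2 transformed. Genes were named through the platform annotation, updated by Entrez identifier for 23962 of the 23978 probes with 1 symbol.

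All 25697 probes were fitted with limma 3.58.1 in R 4.3.3: genotype alone, as designed; genotype with the 5 runs as a block; a moderated F test of runs with genotype in the model; and an F test of the interaction. Tests were two-sided, with Benjamini-Hochberg adjustment over all probes and a threshold of 0.05. The script was tested on simulated data. Arrays carry no counts, so their number limits the precision. Groups came from the array titles; the labels share no replicate numbers between genotypes. Per-array values are shown for the first 6 members by p in each fit and by range over arrays. The members and lists were chosen with earlier results of these data known. Alternatives were other backgrounds, renormalisation, a filter on dim probes, the median of a gene's probes, runs as a random block or as pairs, a macrophage covariate, and leaving out arrays and runs. Several members have close paralogs (Ifit3, Oas1a, Gbp2), and whether their probes separate these was not tested.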

Additional observations from a re-analysis of the deposited data

Results flagged for a closer look

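Rsad2 was the 1 member whose genotype difference differed between runs by the test of the interaction (adjusted p = 0.00207): Hdac3 CKO was the higher genotype in runs 1 to 4 and the lower one in run 5.

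In 2 of 72 sets of 8 arrays, 1 per member and genotype, a single array stood apart from the rest by Dixon's criterion, where chance gives about 1 in 20. Oas1a was 6.60 in WT5, with the next wild type array at 6.36. Mx2 was 6.57 in WT14, with the next wild type array at 6.43. Both genes are dim, and both values lie near the middle probe of the array.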

How the results depend on the processing

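No result listed here changed direction under any alternative run. With the runs as a block, 1 member (Parp12, difference 0.30) was called without run 4, and 0 to 1 when single arrays were left out. The count of members that differed between runs was 12 without run 2 and 13 in Hdac3 CKO arrays alone, and 19 to 21 when single arrays were left out. The share of all probes called without run 2 is not given here. Gbp2 lost its call with the median over its probes (adjusted p = 0.103) and Isg15 without run 2 (0.213). The median correlation over all 36 members was 0.39, and 0.51 without run 5; over the bright members it was 0.57, and 0.39 to 0.64 when single runs were left out, lowest without run 2. The median genotype difference lay between 0.03 and 0.20 without the block and between 0.06 and 0.17 with it. Runs as a random block, runs as 5 pairs and the macrophage covariate, tried for the genotype difference only, called 0 members, as did the main fits; a second quantile normalisation, tried for all tests, changed no call among the members named. The alternatives that leave out WT13 with WT14, KO15 with KO32, single runs from the interaction, or 1 genotype, or Fcer1g from the covariate, were chosen after seeing the data. Dim probes limit what can be said of 9 members.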

Other observations

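Outside the 37 members, the genes whose levels followed the bright members most closely over the 16 arrays were of mixed kinds. Of 8801 candidates, Irgm2 (Pearson 0.95 with the mean standardised level of the bright members) and Cmpk2 (0.92) came first, both interferon-stimulated. They were followed by Vstm4 (0.91), Rnf144a (0.90), Acss2 (0.90), Fbxw17 (0.89), Slc1a3 (0.89), Syn2 (0.89), the adipokine Adipoq (0.89) and the desaturase Scd1 (0.88). With the run means removed, a ranking chosen after seeing the data, the first were Nfkbie (0.85), an inhibitor of NF-kappa-B, Irgm2 (0.85) and Washc1 (0.84), and Acss2 was at 0.42. The 16 points share normalisation and runs.

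Adipoq was called between genotypes in the blocked fit (adjusted p = 0.00105), with a mean of 9.54 in Hdac3 CKO and 8.35 in wild type. It was not called without the block (adjusted p = 0.932) or with the runs as a random block (0.653).

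Irgm1, 1 of the members, was measured by 3 probes that differed in their distance between runs. The brightest, at a mean of 12.70, had a run range of 0.40, and the next, at 8.57, had 1.48 (adjusted p = 7.10e-06), with a Pearson correlation of 0.70 between them.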
